A study of Mus musculus with 22 samples.

Results

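Glycolysis in this lung epithelial line was followed through 10 genes: the glucose transporter Slc2a1, the hexokinases Hk1 and Hk2, the phosphofructokinases Pfkl and Pfkp, Aldoa, Gapdh, Pgk1, Eno1 and Ldha. They were chosen by name, as the probes whose annotated accession maps to these symbols, out of 20018 genes named on the array. The 10 genes carry 20 of the 55681 probes: Slc2a1, Hk2, Pfkl, Aldoa, Pgk1 and Eno1 have 1 probe each, Hk1 and Pfkp 2 each, Ldha 3 and Gapdh 7. Each gene is described by its brightest probe, the one with the highest mean Cy5 signal over all arrays, and its other probes are given beside it.

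Glycolysis is the chain of cytosolic enzymes that turns glucose into pyruvate with a net gain of ATP, and cells short of oxygen pass the pyruvate on to lactate. Hexokinase traps glucose in the cell, phosphofructokinase commits it to breakdown, and both steps are the usual points of control. The transcription factor HIF-1 is known to raise most of these genes in low oxygen, and Gapdh is widely used as a reference gene because its transcript is taken to be steady.

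FE1 cells, an immortal epithelial line from the lung of a MutaMouse (a transgenic mouse carrying a mutation reporter), were grown for 24 h with Mitsui7, a long and stiff multi-walled carbon nanotube. The 22 arrays comprise 5 of unexposed control cells, 6 of cells at a low dose of 12.5 µg/ml, 5 at a medium dose of 25 µg/ml and 6 at a high dose of 100 µg/ml. Sample RNA was labelled with Cy5 and hybridised with Universal Mouse Reference RNA in Cy3, with no dye swap. All arrays come from one cell line, and the study describes 3 experiments with several exposures at each dose without saying which arrays belong to which, so the p-values measure the spread between these arrays and not between known independent cultures.

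All values are log2 ratios of the sample's Cy5 signal to the reference's Cy3 signal, and a change is the difference of that ratio between groups in limma's moderated test with dose group and slide as terms. A gene was called changed when its p-value, Benjamini-Hochberg adjusted over all 55681 probes, was at most 0.05, its change was at least 1.5-fold (0.585 on the log2 scale) and its probe was detected on at least 4 arrays of either group. Detection counts ranged from 23688 to 39138 probes an array, and log2 ratios of array pairs correlated between 0.62 and 0.961. The keratins Krt7, Krt8 and Krt18 were detected on all 22 arrays and Krt19 on 21, while the epithelial adhesion gene Cdh1 was detected on 0 arrays. Epcam was detected on 10 arrays and Cldn4 on 16, and they were well above background on 0 and 5. The fibroblast genes Col1a1, Col1a2, Col3a1, Dcn and Pdgfra were well above background on all 22 arrays, as were the leukocyte genes Itgam, Csf1r and Cd3e and the endothelial gene Kdr. Other markers of these types read lower: well above background were Lum on 2 arrays, Adgre1 on 11, Ptprc and Pecam1 on 19 each, Emcn on 1, and Cdh5 and Tek on 0. The keratins are thus present, Cdh1 was not detected and Epcam was not well above background. Some but not all markers of the other types read well above background.

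The members share a sequence feature that the choice by name did not use. Promoters of 300 bases (250 before and 50 after the start, RefSeq, mouse GRCm38.p6) were found for 10 of 10 genes, 16 promoters in all. The letters ACGTG or GCGTG on either strand, the cores of the hypoxia response element that HIF-1 binds, occur in 14 of the 16 promoters and in at least 1 promoter of each of the 10 genes. Over all mouse promoters of that length, 43.8% of 32851 hold such letters, or 46.7% of 27025 genes. ACGTG alone occurs in 8 of the 16 against 19.6% of all, GCGTG in 10 of the 16 against 32.4%, and the GC box GGGCGG in 10 of the 16 against 35.7%. Some promoters of Aldoa and of Eno1 overlap, so the same letters count more than once. By gene, ACGTG occurs in 7 of 10 against 21.8%, GCGTG in 7 against 35.2% and GGGCGG in 8 against 38.2%. The E-box CACGTG, which holds ACGTG on both strands, occurs in 1 of the 16 promoters against 7.2% of all. Those of 3 genes are shown: Hk2 and Pfkl, which had the largest changes upward and downward, and Ldha, which had the smallest adjusted p at the high dose; capitals mark ACGTG and GCGTG on either strand.
Hk2, chr6:82774405-82774704, minus strand: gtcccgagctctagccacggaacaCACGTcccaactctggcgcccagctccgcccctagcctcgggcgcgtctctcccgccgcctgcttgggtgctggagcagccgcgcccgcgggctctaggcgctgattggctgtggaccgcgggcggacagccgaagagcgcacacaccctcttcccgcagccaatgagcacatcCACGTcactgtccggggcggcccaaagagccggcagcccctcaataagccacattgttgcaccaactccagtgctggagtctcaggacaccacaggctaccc
Pfkl, chr10:78009758-78010057, minus strand: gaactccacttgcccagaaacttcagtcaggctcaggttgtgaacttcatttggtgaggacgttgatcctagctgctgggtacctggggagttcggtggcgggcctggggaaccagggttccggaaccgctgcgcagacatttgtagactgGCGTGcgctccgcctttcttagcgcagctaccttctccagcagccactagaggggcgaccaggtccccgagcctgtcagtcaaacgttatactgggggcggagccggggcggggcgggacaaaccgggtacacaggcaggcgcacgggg
Ldha, chr7:46845554-46845853, plus strand: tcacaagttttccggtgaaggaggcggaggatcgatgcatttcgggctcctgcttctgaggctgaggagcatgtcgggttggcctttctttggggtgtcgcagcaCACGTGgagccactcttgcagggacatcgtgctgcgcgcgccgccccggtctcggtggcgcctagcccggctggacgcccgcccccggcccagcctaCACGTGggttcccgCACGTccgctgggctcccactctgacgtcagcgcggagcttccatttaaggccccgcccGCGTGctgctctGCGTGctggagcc
Hk2 has 2 such cores, both read on the opposite strand, and Pfkl has 1. Ldha has 7, of which 4 come from its 2 CACGTG letters, the only E-boxes among the members' promoters. Ldha has a second promoter in the table, chr7:46846832-46847131, with 2 cores and no E-box, and the one with more cores is shown. A match is a match of letters only; binding was not measured here.

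None of the 10 genes was called changed at any dose by limma's moderated test. Over all named genes detected, 5.18% were called at the low dose, 8.89% at the medium dose and 11.8% at the high dose, so a count of 0 among 10 lies close to the background and is no result about these genes. At an unadjusted p below 0.05 the members numbered 0 at the low dose, 5 at the medium dose and 4 at the high dose, against 27.4%, 32.7% and 36% of all named genes. The ordinary linear model without variance shrinkage also called 0 at each dose. By probe, 0 of the 20 were called at any dose, against 3.26%, 5.61% and 7.55% of all detected probes. Among the brightest probes of the 10 genes the smallest adjusted p was 0.439 at the low dose, 0.112 at the medium dose and 0.0929 at the high dose (limma). Among all 20 probes it was 0.329, 0.112 and 0.0621.

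Most of the genes nevertheless lay below the control. The change was below 0 for 8 of 10 genes at the low dose, 9 of 10 at the medium dose and 8 of 10 at the high dose, with medians of -0.12, -0.33 and -0.29 on the log2 scale. The corresponding medians over all named genes were 0.00, 0.00 and 0.01, with 49.9%, 49.8% and 48.7% of genes below 0. When arrays were median centred in place of loess the members below 0 numbered 9, 8 and 9, and with the authors' processed values 7, 9 and 8. The low dose count rested on few arrays. Without control replicate 1 the low dose changes of Slc2a1, Hk1 and Ldha turned to 0.18, 0.08 and 0.05. Without slide 1 those of Slc2a1, Hk1, Pfkl, Gapdh and Ldha turned to 0.37, 0.21, 0.011, 0.0018 and 0.067. At the upper doses only Slc2a1 turned above 0 under these: to 0.02 without control replicate 1 (medium dose), and to 0.14 and 0.017 without slide 1. The 3 dose comparisons share the same 5 control arrays, so their values are not independent of each other.

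**Figure D1:**
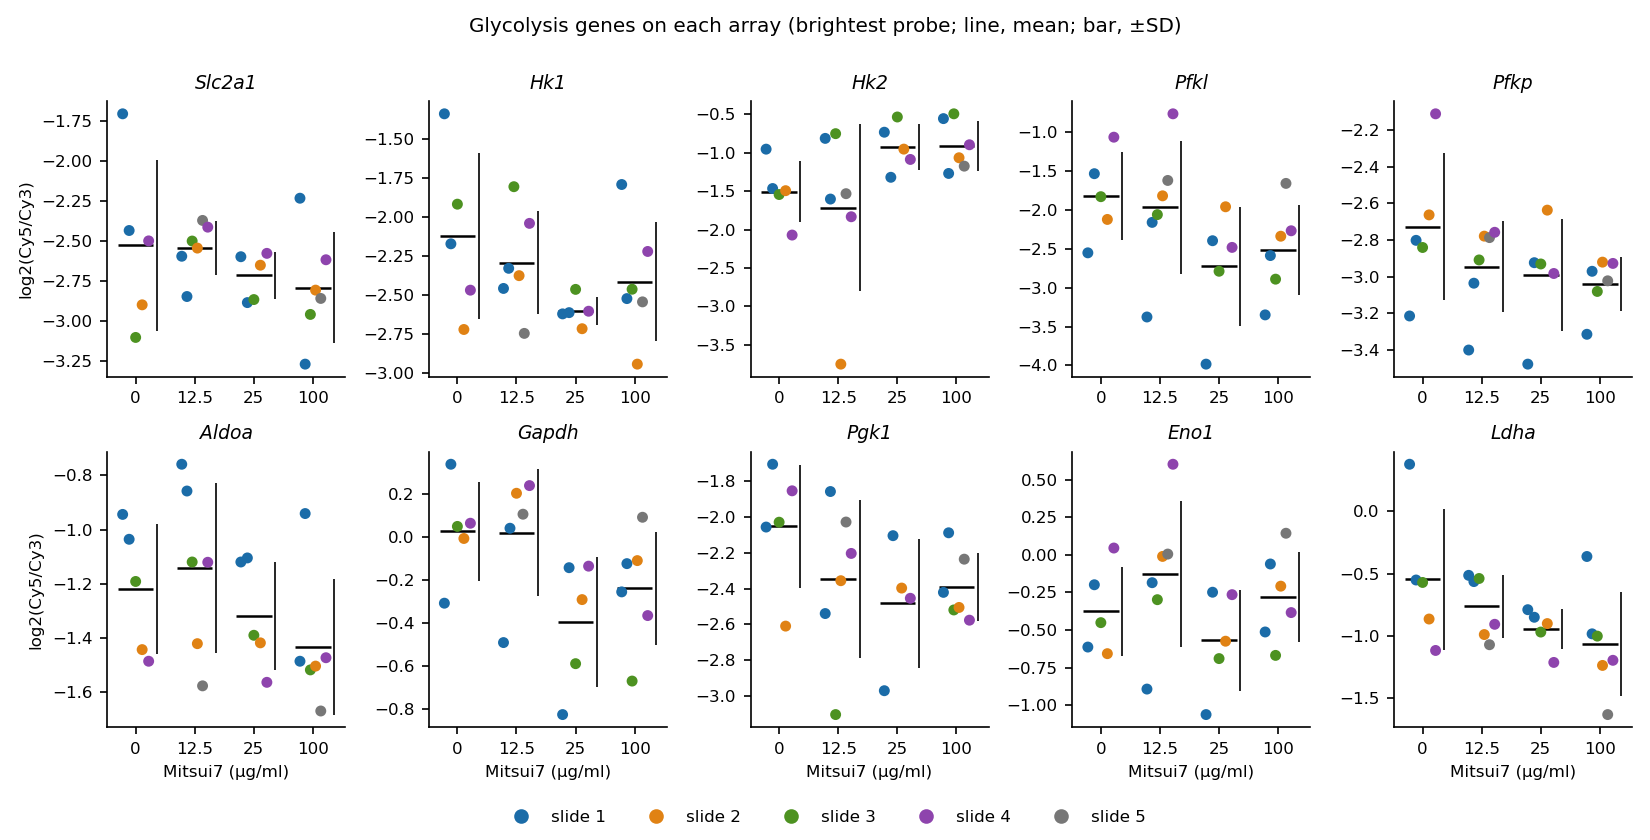
Log2 ratio of sample to reference (vertical axis) of each glycolysis gene on each of the 22 arrays, by Mitsui7 dose in µg/ml; points are arrays coloured by slide, horizontal lines are group means and vertical bars are ±1 SD, and each panel has its own scale. Hk2 lies higher at 25 and 100 µg/ml than in most controls, Pfkl and Ldha lie lower, and all groups overlap.

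The glucose transporter came first in the order of the pathway. Slc2a1, which brings glucose into the cell, read -1.70, -2.43, -3.10, -2.90 and -2.50 in the 5 control arrays. The 6 high dose arrays ran from -3.27 through a median of -2.83 to -2.23. The control range held 5 of the 6 high dose arrays, and control replicate 1 alone set its upper end. The change was -0.03 ± 0.19 (SE) at the low dose, -0.19 ± 0.20 at the medium dose and -0.27 ± 0.19 at the high dose (adjusted p = 0.551, limma). Without control replicate 1, the medium dose change was 0.02, so its direction rested on that array.

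The 2 hexokinases gave changes of opposite sign at the upper doses, neither past the test. Hk2, the inducible form that responds to insulin and to growth signals, was the one member that lay above the control at the upper doses. It read -0.96, -1.47, -1.54, -1.495 and -2.07 in controls and -0.74, -1.32, -0.54, -0.95 and -1.09 at the medium dose. The 6 high dose arrays ran from -1.27 through a median of -0.98 to -0.50. Within slides, Hk2 was above the control of the same slide on 4 of 4 slides at the medium dose (by 0.18 to 1.01) and on 4 of 4 at the high dose (by 0.30 to 1.17). The change was 0.58 ± 0.33 (SE) at the medium dose and 0.60 ± 0.32 at the high dose, and neither passed the test (adjusted p = 0.451 and 0.359, limma). The spread came largely from low dose replicate 4, at -3.75, which was also the single array on which the probe was not detected. Leaving that array out of the fit moved the high dose change to 0.64 ± 0.18 (SE) with an adjusted p of 0.0314, past the threshold, and moved the low dose change from -0.20 to 0.24.

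Hk1, the form present in most tissues, gave changes below 0. Its brightest probe read -1.34, -2.17, -1.92, -2.72 and -2.47 in controls. The medium dose arrays were tightly grouped between -2.71 and -2.46, and the high dose arrays lay between -2.94 and -1.79. The change was -0.48 ± 0.19 (SE) at the medium dose (adjusted p = 0.184) and -0.23 ± 0.18 at the high dose (adjusted p = 0.623, limma), and the groups overlapped. Without control replicate 1, the highest control, the changes were 0.08 ± 0.16, -0.29 ± 0.16 and -0.04 ± 0.16 (SE) over the low, medium and high doses. The dimmer Hk1 probe changed by -0.62 ± 0.25 (SE) at the high dose (adjusted p = 0.159), and all 6 high dose arrays lay below every control once slide was taken out. Of the 20 member probes 3 were free of overlap in this way at the high dose, the others being probes of Pfkp and Ldha. Among all named genes 20.5% were, by their brightest probe. With the authors' processed values the brightest probe passed the test at the medium dose, with a change of -0.60 and an adjusted p of 0.0394.

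The phosphofructokinases held the largest change of the 10 genes. Pfkl, the liver type subunit, read -2.55, -1.53, -1.83, -2.12 and -1.06 in controls and -3.98, -2.39, -2.79, -1.96 and -2.48 at the medium dose. The 6 high dose arrays ran from -3.35 through a median of -2.46 to -1.66. The arrays numbered 1 were the lowest of their group at every dose and in the controls. Within slides, the high dose lay below the control on 4 of 4 slides, with differences between -1.20 and -0.22, and the medium dose on 3 of 4. The change was -0.27 ± 0.30 (SE) at the low dose, -0.90 ± 0.31 at the medium dose and -0.82 ± 0.30 at the high dose (adjusted p = 0.788, 0.112 and 0.124, limma). With the replicate number as the block and no slide term, the medium dose change was -0.90 ± 0.20 with an adjusted p of 0.00657. The block gave a high dose change of -0.84 ± 0.20 with an adjusted p of 0.00634, so Pfkl was called lower at both doses under that block. Whether the numbers pair the arrays is not known, since most same-numbered arrays share a slide. Leaving out medium dose replicate 2 moved the medium dose change to -1.11 with an adjusted p of 0.0384.

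Pfkp, the platelet type subunit, gave values that depended on the probe. Its brighter probe changed by -0.33 ± 0.13 (SE) at the high dose (adjusted p = 0.156), and 5 of 6 high dose arrays lay below every control after slide was taken out. Its dimmer probe changed by 0.37 ± 0.15 (adjusted p = 0.16), and 6 of 6 high dose arrays lay above every control. The 2 probes disagreed in sign at all 3 doses, so no direction is given for Pfkp. Transcript ends or variants that each probe reads are not given in the sources used here.

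Aldoa and Eno1 had intervals inside 1.5-fold of the control at all 3 doses. Aldoa, which splits fructose bisphosphate into its triose phosphates, changed by 0.15, -0.10 and -0.14 over the 3 doses, each with an SE of 0.09 or 0.10, and the low and medium signs turned under median centring. At the high dose the interval ran from 0.789 to 1.04 of the control level. Eno1, which makes phosphoenolpyruvate, changed by 0.19 ± 0.18, -0.19 ± 0.19 and 0.04 ± 0.18 (SE), and its high dose sign turned under median centring.

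Pgk1, the first enzyme of the pathway to yield ATP, read -2.06, -1.71, -2.03, -2.61 and -1.86 in controls. The 6 high dose arrays ran from -2.58 through a median of -2.46 to -2.09, inside the control range. The change was -0.34 ± 0.18, -0.49 ± 0.20 and -0.39 ± 0.18 (SE) over the low, medium and high doses (adjusted p = 0.439, 0.222 and 0.28, limma). The medium dose value rests on 4 arrays, because the spot of replicate 3 was marked as an outlier and left out.

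**Figure D2:**
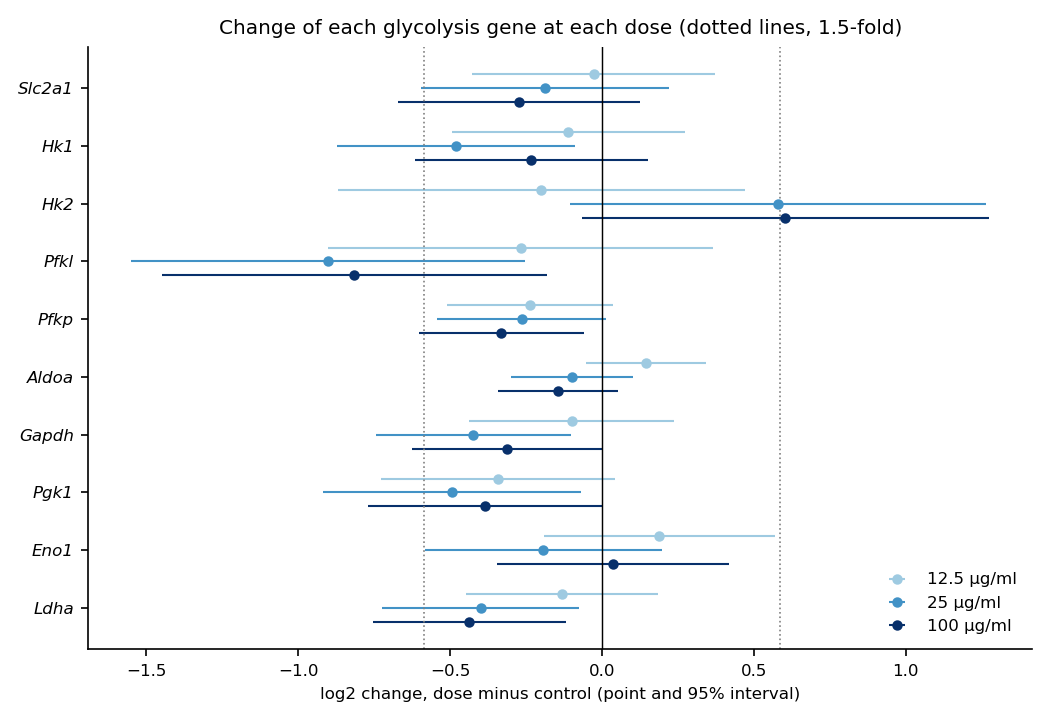
Log2 change from control (horizontal axis) of each glycolysis gene at 12.5, 25 and 100 µg/ml, with its 95% interval; dotted lines mark 1.5-fold. Points lie mostly left of 0 at the upper doses, Hk2 lies to the right, and the widest intervals are those of Hk2 and Pfkl.

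Gapdh, which oxidises glyceraldehyde phosphate, has 7 probes and shows how far probes of one gene can differ. The brightest read -0.31, 0.34, 0.05, -0.01 and 0.06 in controls and -0.83, -0.14, -0.59, -0.29 and -0.14 at the medium dose. It lay below the control on 4 of 4 slides at the medium and the high dose. All 7 probes lay below the control at each dose, and none was called. From the brightest probe to the dimmest, the high dose changes were -0.31, -0.30, -0.52, -0.56, -0.64, -0.74 and -0.87, with SEs between 0.13 and 0.34. On a single array the 7 probes spanned from 0.121 (control replicate 3) to 1.77 (low dose replicate 4) on the log2 scale. The dimmest probe had an adjusted p of 0.153 at the high dose, and 4 of its 6 high dose arrays lay below every control.

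Ldha, which turns pyruvate into lactate and regenerates the NAD+ that Gapdh uses, came nearest to the threshold. Its brightest probe read 0.38, -0.55, -0.57, -0.86 and -1.12 in controls and -0.79, -0.85, -0.97, -0.90 and -1.21 at the medium dose. The 6 high dose arrays ran from -1.63 through a median of -1.10 to -0.36. Within slides, Ldha lay below the control on 4 of 4 slides at the medium and the high dose. The change was -0.13 ± 0.15, -0.40 ± 0.16 and -0.44 ± 0.15 (SE) over the 3 doses, and after slide was taken out 5 of 6 high dose arrays lay below every control (adjusted p = 0.0929, limma). Control replicate 1, at 0.38, stood above the other controls, and without it the changes were 0.05 ± 0.12, -0.22 ± 0.12 and -0.25 ± 0.12 (SE; high dose adjusted p = 0.251). The middle and the dimmest Ldha probes changed by -0.59 ± 0.29 and -0.73 ± 0.23 (SE) at the high dose, the latter with an adjusted p of 0.0621 and 6 of 6 arrays below every control. Taking the median over the 3 probes gave -0.63 ± 0.14 with an adjusted p of 0.00267, so Ldha was called lower at the high dose under that choice.

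**Figure D3:**
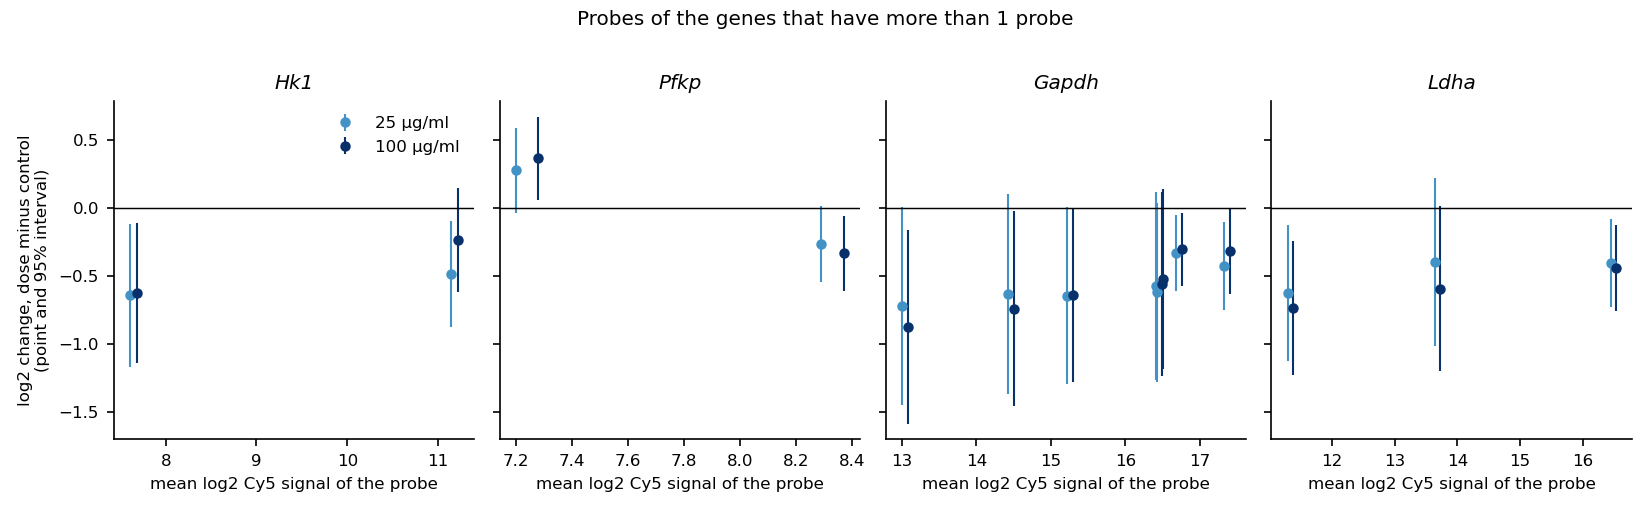
Log2 change from control (vertical axis, with 95% interval) against the mean log2 Cy5 signal of the probe (horizontal axis) for the 4 glycolysis genes with several probes, at 25 and 100 µg/ml. The high dose change of Gapdh runs from -0.31 at the brightest probe to -0.87 at the dimmest, Ldha and Hk1 show the same order, and the 2 probes of Pfkp lie on opposite sides of 0.

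No difference between doses passed the test for these genes. Between the medium and the low dose, the high and the medium dose, and the high and the low dose, 0 of 10 members were called, against 0%, 0% and 0.435% of all named genes. At an unadjusted p below 0.05 the members numbered 4, 0 and 3 in that order, against 8.51%, 5.44% and 14.6% of all named genes. The widest differences from the low to the high dose were those of Hk2 (0.80 ± 0.30, SE, adjusted p = 0.416) and Pfkl (-0.55 ± 0.28, adjusted p = 0.65, limma). That of Hk2 rested largely on low dose replicate 4, without which it was 0.40 ± 0.18 (SE, adjusted p = 0.637). Aldoa had the smallest adjusted p of this comparison (0.246), with a difference of -0.29 ± 0.09 (SE). No member had groups free of overlap between control and any dose by its brightest probe, where 11.6%, 16.4% and 20.5% of all named genes had.

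Arrays differed in ways that dose group and slide did not account for, and some genes varied together in this. The sets named here were formed after the correlations were seen, so that values are higher within them than between them follows from that choice. With dose group and slide taken out, Slc2a1, Hk1 and Ldha correlated at Pearson r of 0.726 to 0.827 (3 pairs, 22 arrays; Spearman rho 0.593 to 0.793). Pfkl, Pfkp, Gapdh, Pgk1 and Eno1 correlated at 0.519 to 0.901 (10 pairs, 20 to 22 arrays; rho 0.504 to 0.884). Pairs between the sets lay between -0.438 and 0.0625, and Hk2 correlated with the second set at -0.549 to -0.364. Aldoa stayed below 0.5 in size with every other member. The points share arrays, reference RNA and loess curve, so this describes the arrays and carries no p. Without the 4 arrays numbered 1 the first set correlated at 0.465 to 0.627 and the second at 0.202 to 0.855 (16 to 18 arrays), a choice made after the values were seen.

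**Figure D4:**
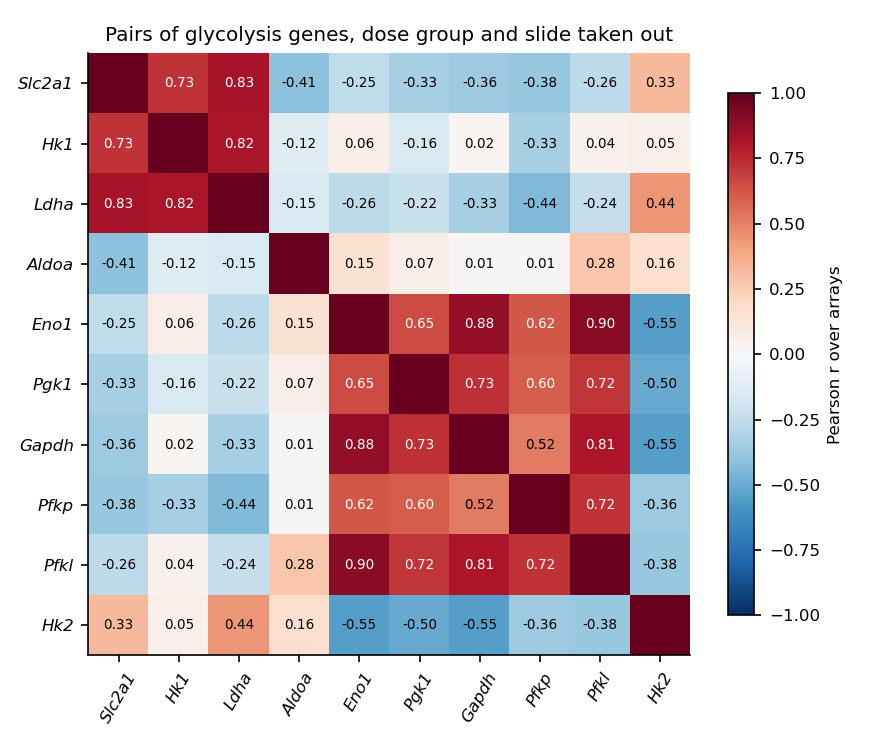
Pearson r between pairs of glycolysis genes (both axes list the genes) over 20 to 22 arrays after dose group and slide were taken out; red is positive, blue negative, and each cell gives its r. Genes are ordered by sets chosen from these same values: Slc2a1, Hk1 and Ldha form a block of 3, and Eno1, Pgk1, Gapdh, Pfkp and Pfkl a block of 5, with values near 0 or below between them.

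The genes outside the lists whose ratio was most like the mean of the 10 members, over 22 arrays with slide taken out and among 10870 candidates, were Rrbp1 (r = 0.902), Arrb1 (0.888), Fdft1 (0.887), Gm13315 (0.884) and Dbi (0.875). Rrbp1 is a ribosome-binding protein of the endoplasmic reticulum, Fdft1 is squalene synthase and Dbi binds acyl-CoA esters. Their high dose changes were -0.79, -0.75, -0.84, -0.86 and -0.76, each further below the control than the median of the members. Dose group was not taken out of the ratios compared, so a fall with dose in the genes picked follows from that choice.

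Some other enzymes of the pathway were called lower. Of 13 further glycolytic enzymes and isozymes, 1 was called lower at the low dose, 1 at the medium dose and 3 at the high dose, and 0 higher; among all named genes 3.01%, 4.65% and 6.4% were called lower. Pfkm, the muscle type phosphofructokinase, fell by 0.62, 0.76 and 0.77 on the log2 scale (adjusted p = 0.0113, 0.00165 and 0.000794, limma), with every exposed array below every control once slide was taken out. Among all named genes 11.6%, 16.4% and 20.5% had no overlap with the controls at the 3 doses. Under median centring Pfkm kept its call at the high dose and not at the low or medium dose (adjusted p = 0.0504 and 0.0961). Tpi1, which interconverts the trioses, fell by 0.76 at the high dose (adjusted p = 0.0197), a call lost without the slide term (adjusted p = 0.244). Pgam1, a phosphoglycerate mutase, fell by 0.78 (adjusted p = 0.0279), a call lost under median centring (adjusted p = 0.118). Of 43 alternatives, the high dose call held under 31 for Tpi1 and 29 for Pgam1. Gpi1, which makes fructose phosphate, passed the adjusted p at all 3 doses (0.0227, 0.00536 and 0.00108) with changes of -0.40, -0.44 and -0.54, short of 1.5-fold. Pkm, the pyruvate kinase, changed by -0.35 ± 0.29 (SE) at the high dose (adjusted p = 0.652). Of 5 other glucose transporters detected, 0 were called at any dose.

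Genes that set the flux through the pathway were called in both directions, where 2.17%, 4.24% and 5.45% of all named genes were called higher at the low, the medium and the high dose. Of 11 detected, 0 were called at the low dose, 1 higher and 4 lower at the medium dose, and 1 higher and 3 lower at the high dose. Among all named genes 4.65% and 6.4% were called lower at those 2 doses. Under median centring 1 higher and 2 lower were called at each. Without the slide term 0 higher and 1 lower were called at the medium dose, and 1 higher and 2 lower at the high dose. Pdk1, a kinase that holds pyruvate dehydrogenase inactive, fell by 0.89 at the medium dose and 1.13 at the high dose (adjusted p = 0.00228 and 0.000105, limma). Pdk3 of the same family fell by 0.68 and Pfkfb4, which makes and removes a sugar phosphate that activates phosphofructokinase, fell by 0.68 at the high dose (adjusted p = 0.0071 and 0.0289). Txnip, which limits glucose uptake, rose by 0.76 at the high dose (adjusted p = 0.0147). Of 43 alternatives, the high dose call held under 43 for Pdk1, 39 for Pdk3, 36 for Txnip and 30 for Pfkfb4. Mpc1, a subunit of the mitochondrial pyruvate carrier, was the 1 gene called among 7 for lactate and pyruvate transport and fell by 0.68 at the high dose. Its call held under 22 of 43 alternatives and was lost under median centring and without the slide term (adjusted p = 0.513 and 0.385).

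Beside glycolysis, called genes lay in gluconeogenesis and glycogen. Of 20 genes of pyruvate dehydrogenase and the citric acid cycle, and of 7 of the pentose phosphate pathway, 0 were called at any dose, where 11.8% of all named genes were called at the high dose. Of the genes of gluconeogenesis and glycogen, 3 of 9 detected were called lower at the low dose (Pcx, Pgm1 and Pygb). The same 3 of 8 were called lower at the medium dose and 4 of 9 at the high dose. Over all named genes the shares called lower were 3.01%, 4.65% and 6.4%. Under median centring the counts were 1, 1 and 3. Pcx, which makes oxaloacetate from pyruvate, fell by 1.42 at the high dose (adjusted p = 2.32e-06, limma). Pgm1, a phosphoglucomutase on the way to and from glycogen, fell by 1.18 (adjusted p = 5.36e-06). Pygb, a glycogen phosphorylase, fell by 0.87, and Ugp2, which makes UDP-glucose, fell by 0.74. Of 43 alternatives, the Pygb call held under 31 at the low, 21 at the medium and 40 at the high dose. That of Pcx held under 32, 43 and 43, and that of Pgm1 under 38, 42 and 43.

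Called HIF targets went both ways, though under median centring not at the low or the medium dose. Hif1a, the oxygen-regulated subunit of HIF-1, fell by 0.70 at the high dose (adjusted p = 0.00701, limma). It was the 1 gene called of 9 for hypoxia sensing, close to the 11.8% of all named genes called there. That call was lost under median centring (adjusted p = 0.175), without slide 1 (0.255) and without slide 3 (0.0598), and held under 37 of 43 alternatives. Of 16 detected HIF targets outside glycolysis, 1 was called higher and 1 lower at the low dose, 3 higher and 4 lower at the medium dose, and 3 higher and 6 lower at the high dose. Among all named genes 2.17%, 4.24% and 5.45% were called higher and 3.01%, 4.65% and 6.4% lower. Under median centring 1 higher and 0 lower were called at the low dose, and 2 higher and 0 lower at the medium dose. At the high dose that centring gave 1 higher, Ndrg1, and 4 lower. Without the slide term the counts higher were 1, 2 and 2, and the counts lower 1, 2 and 6. Ndrg1, a stress-responsive gene, rose by 1.55 at the high dose (adjusted p = 7.31e-08), with all exposed arrays above every control once slide was taken out. At the high dose 20.5% of all named genes had no overlap with the controls. The collagen prolyl hydroxylases P4ha2 and P4ha1 fell by 1.31 and 1.18, and the lysyl hydroxylase Plod2 fell by 0.89 at the high dose. Over all 104 genes of these other lists on the array, 6, 16 and 22 were called at the 3 doses, of which 1, 4 and 4 higher. The shares called over all named genes were 5.18%, 8.89% and 11.8%, so the low dose count lies near its share. Under median centring the counts were 2, 6 and 13, of which 1, 3 and 2 higher. Without control replicate 1 the medium dose count was 10, and without control replicate 3 it was 9. The low dose count was 3 without control replicate 3 and 10 without control replicate 5.

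**Figure D5:**
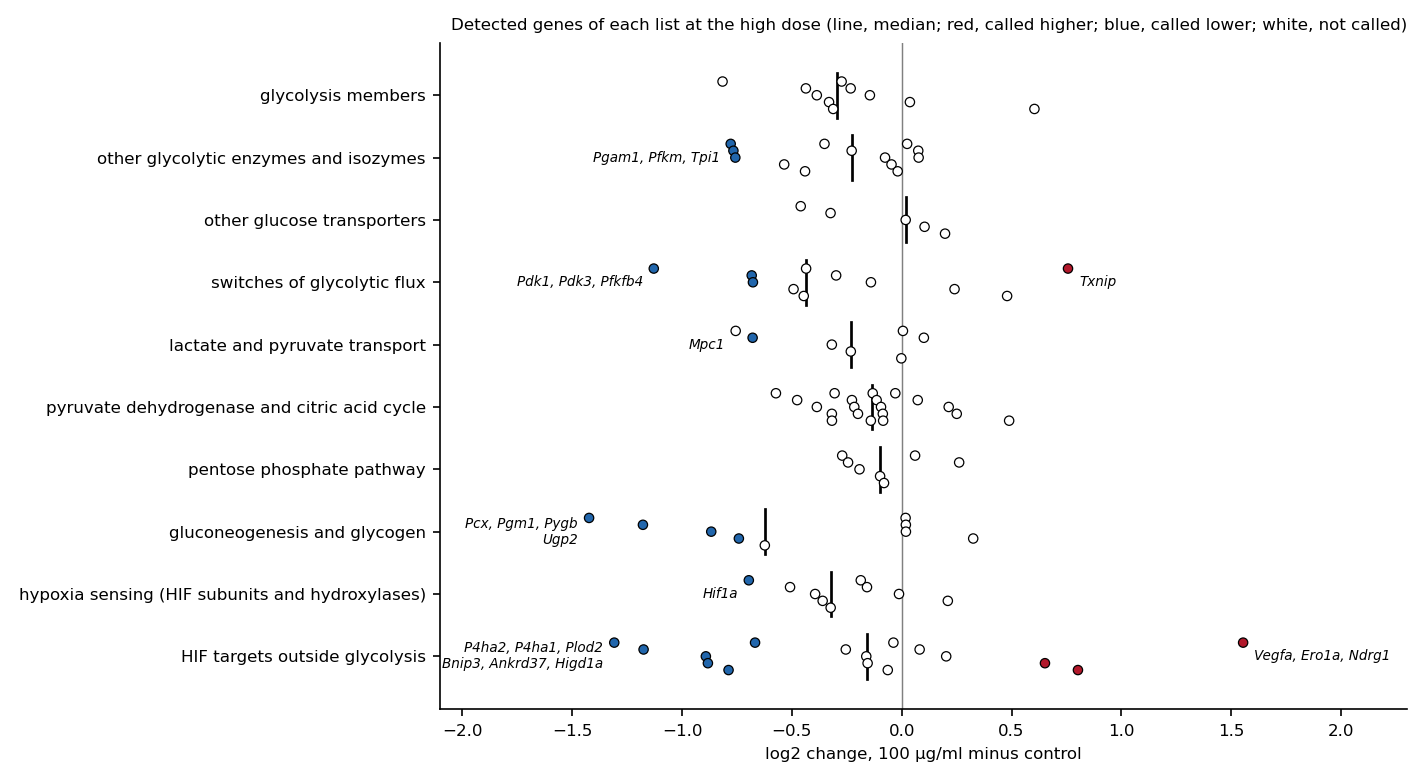
Log2 change at 100 µg/ml from control (horizontal axis) of every detected gene of the glycolysis members and of 9 related lists (vertical axis); circles are genes, filled red where called higher and blue where called lower, and vertical lines are list medians. The 10 members hold no filled circle and a median of -0.29, while called genes lie among the flux switches, gluconeogenesis and glycogen, and HIF targets.

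Markers of fibroblasts and, in 1 gene, of epithelial cells were called lower. The 5 fibroblast markers detected in either group, of 6 listed, were called lower at all 3 doses, with a median change of -0.88, -1.35 and -1.53. Among all named genes 3.01%, 4.65% and 6.4% were called lower at these doses. Under median centring 2 of the 5 were called at the low and at the medium dose and 5 at the high dose, and without the slide term 4 were called at the low dose. Of 5 epithelial markers detected, all lay below 0 at the medium and the high dose, with medians of -0.16 and -0.23. At those doses 1 was called, Krt7, which fell by 0.79 and 0.85. Among so few markers, 1 call is no result beside the shares above. Over the 6 fibroblast markers listed, the mean log2 ratio lay between -0.06 and 0.40 in control arrays. In high dose arrays it lay between -1.44 and -0.97, and Lum was detected on 8 of 22 arrays. Among leukocyte and endothelial markers 0 were called, and Cdh5 and Tek were detected on 1 and 0 arrays. Of 6 alveolar and airway secretory markers 0 were called, and Scgb1a1, Sftpc and Sftpd were detected on 21, 17 and 16 arrays. The 3 detected in either group had median changes of 0.40 and 0.49 at the medium and the high dose. Under median centring these were 0.22 and 0.31. Among all named genes 5.18%, 8.89% and 11.8% were called at the 3 doses, so 0 among so few lies close to the background. Fewer cells of a type and less RNA per cell cannot be told apart in such bulk samples, and the part of these markers in the glycolysis values was not tested.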

How the data were processed

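The 10 members and all gene lists were chosen with earlier results of these data known. Scanner files (Feature Extraction 10.7.3.1, mm9 grid, per the file headers) gave median Cy5 and Cy3 intensities, deposited without background subtraction or normalization. The deposited log10 ratio of the scanner software and the authors' processed log2 values of the series matrix served only as alternatives. The matrix states no scale or centring: its columns correlated best with their own arrays (r 0.84 to 0.99, slopes 0.573 to 0.981), so its scale remains unknown.

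Control spots were removed (59305 of 62976 spots an array kept), spots marked as outliers were set missing, and log2(Cy5/Cy3) was loess normalised within arrays. Spots of a probe were combined by their median. A probe was detected above the 5% trimmed mean plus 3 trimmed SDs of 308 negative control spots. Dose group and slide (5 slides, told apart by barcode) were fitted over 22 arrays with limma 3.58.1 in R 4.3.3. The fit had 5.51 prior degrees of freedom. The MAANOVA test of the study was not used here. The scanner files hold no mean signal, so the normexp alternative (offset 50) used the median signal. Of 55681 probes, 26413 mapped to a symbol. The number of arrays limits the precision.

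Named genes are the 10 members, of each other list at most 4 called genes with the largest high dose change, and the 5 genes most like the members. Gpi1, Pkm and genes given in marker or array checks were added after their values were seen, as were the 3 promoters printed. The labels number replicates alike in each group. Deviations from the group means of same-numbered arrays correlated at 0.188 to 0.793 in 27 pairs on the same slide. In 4 pairs on different slides they correlated at 0.247 to 0.474. Differently numbered arrays were not set beside them, so these values cannot tell pairing by number from a shared slide. The number served as a block in an alternative only. The test was checked on simulated data. No 2 arrays shared more than 2.39% of equal Cy5 signals. Alternatives covered normalization, background, spot filters, slide and block terms, thresholds, probe choice and left-out slides or arrays.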

Additional observations from a re-analysis of the deposited data

Results flagged for a closer look

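Of 40 groups of arrays tested over the 10 members, 3 held an array whose gap to the nearest other exceeded Dixon's 95% critical value; chance gives about 1 in 20. Aldoa in high dose replicate 2 read -0.94 where the next array read -1.47. Gapdh in low dose replicate 1 read -0.49 where the next read 0.04, over 5 arrays. Hk2 in low dose replicate 4 read -3.75 where the next read -1.83.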

How the results depend on the processing

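Across 44 alternatives for each comparison, no member was called at the low dose or between doses under any of them, 0 members were called at the medium dose under 41 and at the high dose under 38. The exceptions were 1 member each. Pairing arrays by replicate number, with the replicate block in place of slide, called Pfkl at the medium and the high dose (1 member each) and changed no other member's call. Pfkl was also the 1 member called at the high dose under median centring, with only the 2 groups compared, and with all 4 arrays numbered 1 left out, the last chosen after seeing the data. Ldha was the 1 member called at the high dose under the median over all its probes, and Hk1 the 1 called at the medium dose with the authors' processed values. Leaving out single arrays gave 0 to 1 members at the medium dose (Pfkl, without replicate 2 of that dose) and 0 to 1 at the high dose (Hk2, without low dose replicate 4).

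Signs of small changes turned. Median centring gave Aldoa -0.010 at the low and 0.036 at the medium dose, and Eno1 -0.028 at the high dose; it moved the median of all named genes at the low dose from 0.00 to -0.11. The authors' processed values gave Hk2 0.025 at the low dose. The median over all probes gave Pfkp 0.0091 at the medium and 0.019 at the high dose. Without slide 1, which holds 8 arrays, the low dose changes were 0.37 for Slc2a1, 0.21 for Hk1, 0.011 for Pfkl, 0.0018 for Gapdh and 0.067 for Ldha, and Slc2a1 changed by 0.14 at the medium and 0.017 at the high dose. Without slide 2, Hk2 changed by 0.27 at the low dose and Eno1 by -0.067 at the high dose. Without the 4 arrays numbered 1, low dose changes were 0.17 for Slc2a1, 0.12 for Hk1 and 0.047 for Ldha. Leaving out 1 array at a time, low dose changes ran from -0.15 to 0.18 for Slc2a1, -0.22 to 0.079 for Hk1, -0.38 to 0.24 for Hk2, -0.19 to 0.018 for Gapdh and -0.22 to 0.052 for Ldha. The same gave -0.31 to 0.018 for Slc2a1 at the medium dose and -0.058 to 0.16 for Eno1 at the high dose.

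Counts over the other lists (6 at the low dose, 16 at the medium dose and 22 at the high dose) were 2, 6 and 13 under median centring, 1, 4 and 6 at a 2-fold threshold, 1, 7 and 11 without slide 1 (where control and medium dose keep 3 arrays each, and detection on all 3 of either was asked for), and 3, 8 and 13 without slide 3. The medium dose count was 8 without the slide term and 10 in the ordinary linear model. The low dose count was 3 in the ordinary linear model, with only the 2 groups compared and without the 4 arrays numbered 1, and 11 with no fold threshold. Leaving out 1 array at a time gave 3 to 10, 9 to 17 and 17 to 23. The alternatives for these lists, beyond median centring and the slide term, were chosen after seeing the data. The cause of each move was not tested, apart from fewer arrays where slides or arrays were left out.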
